A study of Mus musculus with 9 samples.

Results

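The genes described here are the enzymes that break down glucose and the proteins that control them: 36 genes of glycolysis, the pentose phosphate pathway and the entry of pyruvate into mitochondria, out of 35275 rows in the count table. They were chosen by name, with earlier results of these data known. By symbol, 35 of them were found, and Tigar was found by its Ensembl identifier because the table lists it under an older clone name. All 36 passed the filter on low counts. Mouse embryonic fibroblasts (MEFs) of the C57Bl/6 strain, grown in DMEM, were kept in iso-osmolar medium of 300 mOsm or moved for 3 h to medium with 200 mM added sucrose (500 mOsm, low-intensity stress) or 300 mM added sucrose (600 mOsm, high-intensity stress). Poly-A RNA was sequenced from 3 libraries of each group, and the labels do not say whether the 3 came from separate cultures, so p-values measure the spread between these libraries, which may be technical. The 500 and 600 mOsm groups were each compared with the same 3 iso-osmolar libraries, and with each other.

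Glycolysis splits glucose into pyruvate in the cytosol. Its pace is set mainly at hexokinase, phosphofructokinase and pyruvate kinase, and fructose 2,6-bisphosphate, made and removed by the PFKFB enzymes, is the strongest activator of phosphofructokinase. The pentose phosphate pathway branches off at glucose 6-phosphate to make NADPH and ribose, while the pyruvate dehydrogenase (PDH) complex commits pyruvate to the citric acid cycle unless PDH kinases switch it off. Cultured fibroblasts rely heavily on glycolysis, and hyperosmotic medium draws water out of them.

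Total counts ran from 21716042 to 26740832 per library. Levels of 1 gene across libraries are given as CPM (counts divided by the TMM-scaled library size), and levels of different genes are compared as FPKM, which is per gene length. Of 10 fibroblast markers, 9 were above 1 FPKM in every library, and the exception was Postn. Their levels were not all stable. By edgeR (adjusted p under 0.05), Col3a1 and Pdgfra fell under 500 mOsm stress (log2 fold changes -1.27 and -0.7). Pdgfrb rose (0.17), and the other 7 were not called. Under 600 mOsm stress Col3a1 and Pdgfra fell again (-0.65 and -0.68), 4 markers rose and 4 were not called. Summed endothelial markers reached 3.36 to 3.83 FPKM at 500 mOsm against 0.202 to 0.246 FPKM in the iso-osmolar libraries, and leukocyte markers 4 to 4.23 against 0.75 to 1.48 FPKM. The highest single values were 3.52 FPKM for Pecam1 and 2.91 FPKM for Cd79a. Of the other markers in these lists, Cd68 read 0.694 to 1.54 FPKM. Cdh5, Kdr, Tek, Ptprc, Adgre1 and Cd3e were at or below 0.204 FPKM in all libraries. At an adjusted p under 0.05 in edgeR, Pecam1, Cd79a and Tek were higher at 500 mOsm (log2 fold changes 5.28, 4.75 and 4.65). So was the epithelial Cdh1 (7.5), which reached at most 0.835 FPKM. Pecam1, Cd79a, Tek and Cdh1 met the filter on low counts only through stressed libraries, so these calls are not independent of it. Of the neural markers 1 was higher and 1 lower at 500 mOsm, and Nes read 33.9 to 48.5 FPKM. In bulk RNA, fewer cells of a type and less RNA per cell cannot be told apart.

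At 500 mOsm the genes that fell coded for a hexokinase, 2 PFKFB enzymes, a PDH kinase, a ribose 5-phosphate enzyme and a low-count aldolase. Of the 36 genes, 3 were higher and 6 were lower than in the iso-osmolar libraries at an adjusted p under 0.05 (edgeR quasi-likelihood test, adjusted over 13082 genes). These are 8.33% and 16.7% of the 36, beside backgrounds of 13.2% higher and 14.8% lower among all genes tested, so neither count stood far from the background. The 6 lower genes were Hk2, Pfkfb3, Pfkfb4, Aldoc, Rpia and Pdk4, and the 3 higher ones were Pfkm, Pkm and Pdk2. Aldoc met the filter on low counts only through its iso-osmolar libraries, which favours a call of lower. The median log2 fold change over the 36 genes was -0.02, and over all genes tested 0.01. The 6 losses were called in every fit that left out 1 library, while Pkm kept its call in 4 of 9 such fits, Pfkm in 5 and Pdk2 in 6.

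At 600 mOsm, compared with iso-osmolar medium, 12 genes were higher (33.3%, background 15.1%) and 8 were lower (22.2%, background 20.0%). The 12 higher genes were Pfkl, Pfkm, Aldoa, Tpi1, Gapdh, Pgk1, Eno1, Pkm, Ldhb, Pgls, Taldo1 and Pdhb, with log2 fold changes of 0.13 to 0.37. The 8 lower genes were Hk1, Hk2, Pfkfb3, Aldoc, Rpia, Pdha1, Dlat and Tigar. The median log2 fold change was 0.07 over the 36 genes and 0.01 over all genes tested.

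The small gains at 600 mOsm depended on the processing. With each library corrected for smooth trends of its counts with gene GC content and length, the split became 5 higher (13.9%, against 15.2% of all genes in the same fit) and 9 lower (25%, against 21.6%), and at 500 mOsm it was 5 higher and 7 lower (13.9% and 19.4%, against 15.8% and 17.4%). At 600 mOsm Aldoa, Tpi1, Gapdh, Eno1, Pkm, Ldhb and Pgls lost their calls, Pfkl, Pfkm, Pgk1, Taldo1 and Pdhb kept them, and the 8 losses were all kept. Calls were gained for Pfkfb4 (lower) at 600 mOsm, and for Pfkl and Pgk1 (higher) and Tkt (lower) at 500 mOsm. The number called also fell from 20 to 8 without 600 mOsm replicate 3, to 10 without iso-osmolar replicate 1, to 12 without iso-osmolar replicate 3 and to 13 without 600 mOsm replicate 1. Hk2, Pfkm, Pfkfb3, Pgk1, Taldo1 and Dlat kept their call whichever library was left out.

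Compared directly, 10 genes were higher at 600 than at 500 mOsm (27.8%, background 11.9%) and 2 were lower (5.56%, background 17.2%). The higher genes were Hk2, Pfkfb4, Aldoa, Eno1, Ldha, Ldhb, Pgls, Tkt, Taldo1 and Pdk4, and the lower ones were Hk1 and Dlat. The median log2 fold change was 0.1. The number called was 6 without 600 mOsm replicate 3 and 7 without 600 mOsm replicate 1. Under the GC content and length correction 6 genes were higher (16.7%, against 13.1% of all genes in the same fit) and 2 lower (5.56%, against 17.9%). Of the 12 calls 6 were kept, those of Hk1, Hk2, Pfkfb4, Pgls, Tkt and Pdk4, and Pgd and Pdha1 were gained. Those kept whichever library was left out were Hk2, Pfkfb4, Pgls, Tkt, Taldo1 and Pdk4.

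**Figure D1:**
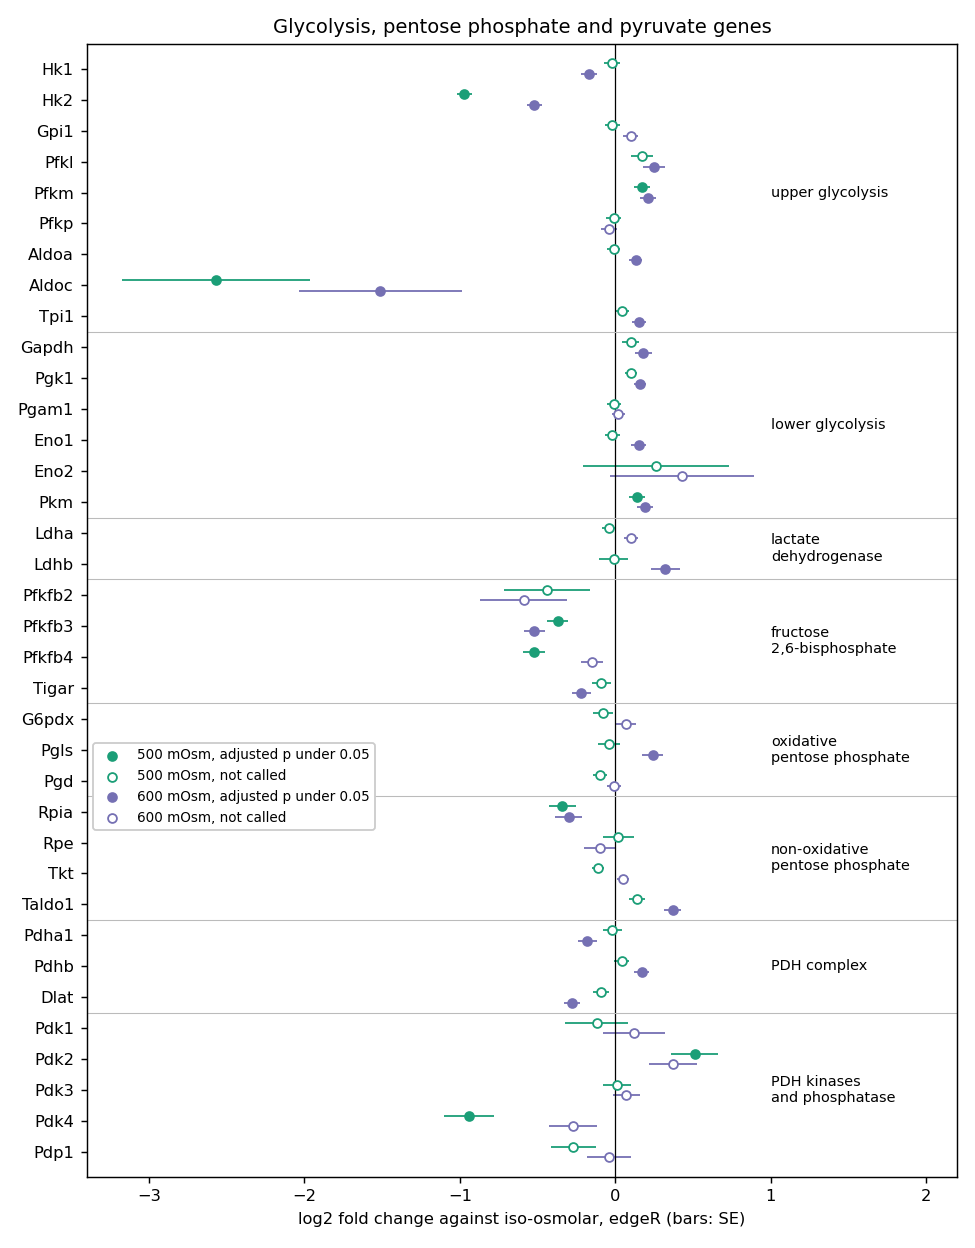
Log2 fold change of each of the 36 genes at 500 mOsm (green) and 600 mOsm (purple) against iso-osmolar medium, grouped by role, with bars of 1 SE. Filled points had an adjusted p under 0.05 in edgeR. Hk2 (-0.97 and -0.52), Pdk4 (-0.94 and -0.27) and the low-count Aldoc (-2.57 and -1.51) lie farthest from 0 at 500 mOsm, while the called genes of lower glycolysis lie between 0.14 and 0.19.

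Hexokinases trap glucose in the cell as glucose 6-phosphate. Hexokinase 2 is the inducible form and hexokinase 1 the form found in most tissues. Hk2 (chr6:82725025-82774454, minus strand, mm10) read 147, 138 and 139 CPM in the iso-osmolar libraries, 74.9, 71.6 and 70.6 CPM at 500 mOsm, and 102, 96.4 and 96.8 CPM at 600 mOsm. The 3 groups did not overlap, and the lowest values were those of the milder stress. Hk2 fell to 0.512 times its iso-osmolar level at 500 mOsm (log2 fold change -0.97 ± 0.05 SE, adjusted p = 2.59e-08). At 600 mOsm it was 0.696 times that level (-0.52 ± 0.0494 SE, adjusted p = 5.88e-06), and it was higher than at 500 mOsm by 0.44 ± 0.05 SE (adjusted p = 2.9e-05). Hk1 read 258, 276 and 248 CPM, then 256, 268 and 249 CPM, then 232, 228 and 237 CPM. Its fall was seen at 600 mOsm alone and was small (-0.17 ± 0.0497 SE, adjusted p = 0.0209), with the 600 mOsm libraries below all others, and against 500 mOsm it was -0.15 (adjusted p = 0.0398), a call kept in 3 of 9 fits that left out 1 library and lost in DESeq2.

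Because FPKM is per length, the isozymes of a family can be compared within a library. Hk2 made up 29.6% ± 1.47 (SD, n = 3) of the summed Hk1 and Hk2 FPKM in the iso-osmolar libraries, 17.9% ± 0.653 at 500 mOsm and 24.7% ± 0.697 at 600 mOsm. The ranges did not overlap. The exact two-sided permutation p was 0.1 for each of the 3 differences, the smallest that 3 against 3 libraries allow, and 0.225 when adjusted over the 18 share tests, so these shares could not pass a threshold of 0.05 in this design. The direction of each difference was the same without any single library.

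**Figure D2:**
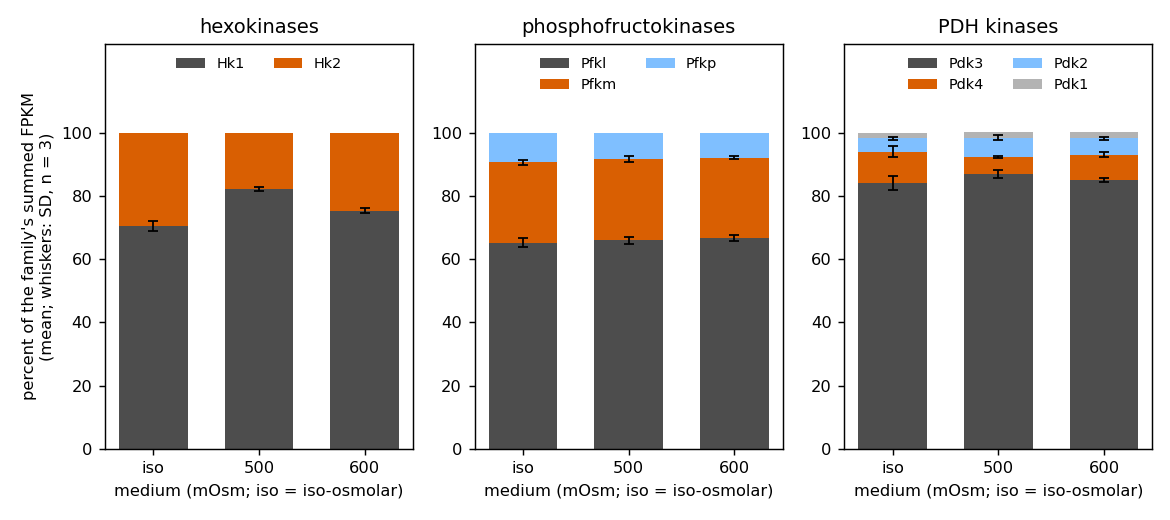
Share of each isozyme in the summed FPKM of its family (percent, stacked bars of group means, whiskers of 1 SD, n = 3 libraries) for hexokinases, phosphofructokinases and PDH kinases. Hk2 shrinks from 29.6% to 17.9% at 500 mOsm and stands at 24.7% at 600 mOsm, the phosphofructokinase make-up stays within a few points, and Pdk4 goes from 9.9% to 5.32% and 7.96%.

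Phosphofructokinase adds the second phosphate and is the committing step. Its muscle-type gene Pfkm read 96.3, 100.3 and 94.4 CPM in the iso-osmolar libraries, 108, 113 and 105 CPM at 500 mOsm, and 112, 108 and 117 CPM at 600 mOsm. Pfkm was higher at both intensities, by 0.17 ± 0.0508 SE (adjusted p = 0.0276) and 0.21 ± 0.0509 SE (adjusted p = 0.00627), and all stressed libraries lay above all iso-osmolar ones. It shares genomic sequence with Senp1 on the opposite strand, whose reads came to 76.2% of those on Pfkm, and strand use in counting is not given in the sources used here. The liver-type gene Pfkl read 301, 348 and 314 CPM, then 374, 379 and 332 CPM, then 384, 355 and 409 CPM. Pfkl was called at 600 mOsm (0.25 ± 0.07 SE, adjusted p = 0.0143) and not at 500 mOsm (0.17, adjusted p = 0.0903), where the groups overlapped. With the GC content and length correction the 500 mOsm difference was 0.14 and was called (adjusted p = 0.0105). The platelet-type gene Pfkp was not called in any comparison, with means of 57.8, 57.3 and 56.1 CPM. Pfkp also overlaps a gene on the opposite strand, Pitrm1, whose reads came to 155% of its own. Pfkp's share of the family was 9.4% ± 0.642, 8.36% ± 0.284 and 7.85% ± 0.467 (SD, n = 3), both stressed groups lying below the iso-osmolar one (exact permutation p = 0.1, adjusted p = 0.225 for each).

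The PFKFB enzymes carry a kinase that makes fructose 2,6-bisphosphate and a phosphatase that removes it, and TIGAR is a p53-inducible protein with a phosphatase of the same kind. Of these 4 genes 2 were lower at each intensity, Pfkfb3 and Pfkfb4 at 500 mOsm and Pfkfb3 and Tigar at 600 mOsm. Pfkfb3, the form with the strongest kinase, read 38.9, 37 and 35.2 CPM in the iso-osmolar libraries, 27.7, 29 and 29.2 CPM at 500 mOsm, and 24.5, 26.6 and 26.3 CPM at 600 mOsm. It fell at both intensities (-0.37 ± 0.0663 SE, adjusted p = 0.000919, and -0.52 ± 0.0669 SE, adjusted p = 7.32e-05), the groups did not overlap, and 600 against 500 mOsm was not called (adjusted p = 0.112). Pfkfb4 read 31.1, 30.2 and 28.6 CPM, then 19.8, 21.8 and 21.2 CPM, then 25.7, 27.9 and 27.6 CPM. Like Hk2 it was lowest at 500 mOsm, where it was 0.7 times the iso-osmolar level (-0.52 ± 0.0708 SE, adjusted p = 0.000121). At 600 mOsm Pfkfb4 was 0.37 ± 0.071 SE above its 500 mOsm level (adjusted p = 0.00178), and against iso-osmolar medium it was -0.15 (adjusted p = 0.128). With the GC content and length correction the difference from iso-osmolar medium was -0.21 and was called (adjusted p = 0.0253). Tigar read 43.6, 42.7 and 39.9 CPM, then 39.7, 39.7 and 39.1 CPM, then 36.5, 37.3 and 34.3 CPM. Tigar was lower at 600 mOsm (-0.22 ± 0.0613 SE, adjusted p = 0.0136), with no library in common with the iso-osmolar range. Pfkfb2 had 1.2 to 3.1 CPM in all libraries and was not called, and its opposite-strand neighbour Yod1 held 137% as many reads.

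**Figure D3:**
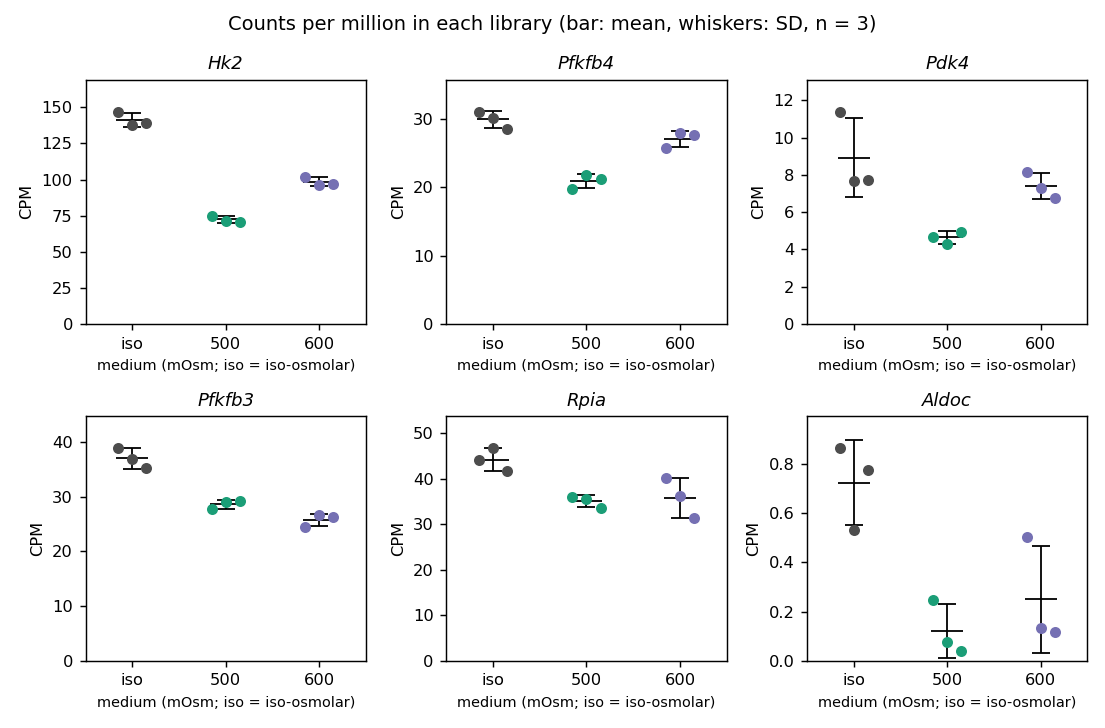
CPM in each of the 9 libraries (points), with group means and SD (n = 3), for the 6 genes lower at 500 mOsm than in the iso-osmolar libraries, with axes from 0. Hk2, Pfkfb4 and Pdk4 are lowest at 500 mOsm and higher again at 600 mOsm, Pfkfb3 and Rpia stay low at 600 mOsm, and Aldoc is below 1 CPM in every library.

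PDH kinases phosphorylate the PDH complex and turn it off, and PDH phosphatases turn it on again. Pdk4, the kinase induced in fasting, read 11.4, 7.66 and 7.73 CPM in the iso-osmolar libraries, 4.67, 4.3 and 4.96 CPM at 500 mOsm, and 8.16, 7.3 and 6.77 CPM at 600 mOsm. All 500 mOsm libraries lay below all others, and iso-osmolar replicate 1 lay above the other two of its group. Pdk4 was 0.521 times the iso-osmolar level at 500 mOsm (-0.94 ± 0.16 SE, adjusted p = 0.000632) and was higher at 600 than at 500 mOsm (0.67 ± 0.162 SE, adjusted p = 0.00749). At 600 mOsm it overlapped the iso-osmolar group (-0.27, adjusted p = 0.199). Pdk2 went the other way at 500 mOsm, with 2.64, 2.54 and 2.09 CPM against 3.61, 3.36 and 3.36 CPM (0.51 ± 0.152 SE, adjusted p = 0.0243), and read 2.8, 3.58 and 3.02 CPM at 600 mOsm (0.37, adjusted p = 0.0808). The Pdk2 call at 500 mOsm was lost in the DESeq2 Wald test. Pdk3, the main PDH kinase in these cells with 84.1% ± 2.18 (SD, n = 3) of the family's FPKM in the iso-osmolar libraries, was not called in any comparison. Pdk1, a hypoxia-inducible kinase, and the phosphatase gene Pdp1 were not called either, and their means stayed within 2.19 to 2.59 CPM and 3.62 to 4.38 CPM. Of the 5 kinase and phosphatase genes 0 passed at 600 mOsm against iso-osmolar medium in edgeR, DESeq2 or limma, and 1 of them (Pdk2) had an unadjusted p under 0.05 in edgeR.

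Hk2, Pfkfb4 and Pdk4 thus shared a pattern of being lower at 500 mOsm and higher at 600 than at 500 mOsm, both by the test, and were the 3 of 36 genes to do so, a grouping made after their values were seen. The share of all genes tested with this pattern was not counted, and both comparisons use the same 500 mOsm libraries. Outside the 36, the same pair of calls was seen for Pdp2 (log2 fold changes -1.18 and 0.51) and the fibroblast marker Col3a1 (-1.27 and 0.62). Actb (-0.14 and 0.24) and Tbp (-0.48 and 0.54), used as RT-qPCR standards, had it too. The pattern was thus not particular to genes of glucose breakdown. The upstream sequence of Hk2, Pfkfb4 and Pdk4 is shown because these 3 genes had this pattern. The sequences are from RefSeq (GRCm38.p6, the assembly called mm10), 5′ to 3′ on the strand of the gene, up to 250 bases before the RefSeq start site, stopping at the gene's edge in the annotation. Capitals mark each match, on either strand, to ACGTG (the core of the hypoxia response element), CACGTG (an E-box, which contains that core) or TGGAAA (the core of the tonicity enhancer bound by TonEBP).
Hk2 (chr6:82774455-82774704, minus strand): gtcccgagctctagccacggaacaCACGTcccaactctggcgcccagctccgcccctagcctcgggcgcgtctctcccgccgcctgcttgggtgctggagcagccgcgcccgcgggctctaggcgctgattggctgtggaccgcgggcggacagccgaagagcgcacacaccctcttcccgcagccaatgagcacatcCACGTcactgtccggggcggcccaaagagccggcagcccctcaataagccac
Pfkfb4 (chr9:108991652-108991901, plus strand): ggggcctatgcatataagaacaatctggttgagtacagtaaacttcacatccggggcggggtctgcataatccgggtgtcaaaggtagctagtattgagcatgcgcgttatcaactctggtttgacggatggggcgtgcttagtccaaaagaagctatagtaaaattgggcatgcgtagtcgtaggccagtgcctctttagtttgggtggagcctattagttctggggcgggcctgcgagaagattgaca
Pdk4 (chr6:5496310-5496528, minus strand): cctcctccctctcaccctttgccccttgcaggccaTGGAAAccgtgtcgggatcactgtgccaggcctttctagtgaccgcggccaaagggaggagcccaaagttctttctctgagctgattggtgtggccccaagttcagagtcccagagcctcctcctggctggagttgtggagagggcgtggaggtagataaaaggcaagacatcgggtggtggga
Hk2 held 2 matches to ACGTG, Pdk4 held 1 match to TGGAAA and Pfkfb4 held none of the 3 words. Of 32851 promoter windows of 250 bases, 16.6% held ACGTG, 6.02% held CACGTG and 18.6% held TGGAAA. RefSeq windows were found for 35 of the 36 genes, 52 windows in all, of which 16 held ACGTG, 5 held CACGTG and 9 held TGGAAA. A match describes letters in a window and not a bound site, and the 3 genes did not have a match in common.

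Among the genes of the steps that split the sugar, the low-count Aldoc alone was called at 500 mOsm. Gpi1, which makes fructose 6-phosphate, had means of 446, 439 and 477 CPM and was not called. Aldoa, the main aldolase, had means of 808 ± 20.7, 801 ± 24.6 and 885 ± 18.2 CPM (SD, n = 3) and was 0.13 higher at 600 mOsm (adjusted p = 0.0282), a difference that turned to -0.03 under the GC content and length correction. Tpi1, which interconverts the triose phosphates, was 0.15 higher at 600 mOsm (adjusted p = 0.0224) and 0.03 with the correction. Aldoc, the brain-type aldolase, was close to the detection limit, with 51 reads over the 3 iso-osmolar libraries, 9 at 500 mOsm and 18 at 600 mOsm. Its libraries read 0.865, 0.533 and 0.777 CPM, then 0.246, 0.0754 and 0.0381 CPM, then 0.502, 0.134 and 0.116 CPM. The ratio of its summed reads to the iso-osmolar ones, scaled by depth, was 0.162 at 500 mOsm (95% exact interval 0.0701 to 0.332) and 0.347 at 600 mOsm (0.191 to 0.604), intervals that cover counting error only. Aldoc passed the test in both comparisons (adjusted p = 0.0061 and 0.0414), though it was never more than 0.0611% of the summed aldolase FPKM, and its 600 mOsm call was lost in DESeq2. It had 13 to 19 reads in each iso-osmolar library, 1 to 6 at 500 mOsm and 3 to 12 at 600 mOsm. Its calls of lower are therefore not independent of the filter on low counts, which it met only through the iso-osmolar libraries. With at least 10 counts required in every library, Aldoc was not tested.

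The lower part of glycolysis pays back ATP, and 3 of its genes were the most abundant of the 36. In iso-osmolar medium Gapdh stood at 3383 ± 158 FPKM, Eno1 at 1783 ± 44.6 and Pkm at 1407 ± 42.9 (SD, n = 3), and these 3 genes took 59.5% to 62.5% of the reads of the 36 in every library. The 36 genes together took 1.93% to 2.02% of all counts in the iso-osmolar libraries, 1.99% to 2.06% at 500 mOsm and 2.10% to 2.19% at 600 mOsm, where every library lay above every iso-osmolar one. Gapdh, the glyceraldehyde 3-phosphate dehydrogenase that many assays use as a standard, including the RT-qPCR of this study, read 4551, 5084 and 4717 CPM in the iso-osmolar libraries, 5057, 5305 and 5035 CPM at 500 mOsm, and 5427, 5126 and 5751 CPM at 600 mOsm. The 500 mOsm libraries overlapped the iso-osmolar ones and the 600 mOsm libraries did not. Gapdh was 1.14 times the iso-osmolar level at 600 mOsm (0.18 ± 0.0541 SE, adjusted p = 0.0193), was not called at 500 mOsm (0.1, adjusted p = 0.195), and under the correction for GC content and length its 600 mOsm difference was 0.06. Reads on 124 pseudogene copies came to 0.527% of those on Gapdh.

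Pkm, pyruvate kinase, read 3335, 3569 and 3317 CPM, then 3776, 3875 and 3649.9 CPM, then 3845, 3709.6 and 4143 CPM. Both stressed groups lay above the iso-osmolar one, by 0.14 ± 0.0507 SE at 500 mOsm (adjusted p = 0.04995, just inside the threshold and lost in DESeq2) and 0.19 ± 0.0507 SE at 600 mOsm (adjusted p = 0.0102). Eno1, the main enolase, was 0.15 higher than in the iso-osmolar libraries (adjusted p = 0.0314) and 0.17 higher than at 500 mOsm (adjusted p = 0.02), and 0.01 and 0.07 under the correction. Pgk1, the phosphoglycerate kinase, was 0.16 higher at 600 mOsm (adjusted p = 0.00734), and was also called in every fit that left out 1 library (0.15 to 0.17) and with the correction (0.13). The mutase gene Pgam1 had means of 422, 419 and 427 CPM, and the neuronal enolase gene Eno2 stayed at or below 0.648 CPM. Neither was called.

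Lactate dehydrogenase turns pyruvate into lactate and restores NAD. Ldha, its main subunit here, had means of 1565 ± 53, 1518 ± 56.8 and 1676 ± 43.3 CPM (SD, n = 3) and was called in 600 against 500 mOsm alone (0.14, adjusted p = 0.0297, or 0.08 with the correction). Ldhb read 15.3, 16.8 and 16.3 CPM, then 16.8, 14.6 and 16.8 CPM, then 18, 20.9 and 21.6 CPM. It was 0.32 higher at 600 mOsm than in either other group (adjusted p = 0.0193 and 0.0198), with no overlap, though both calls were lost under the correction (0.18 and 0.21). Ldhb was 1.38% ± 0.0476 of the family's FPKM in the iso-osmolar libraries and 1.6% ± 0.151 at 600 mOsm (SD, n = 3, exact permutation p = 0.1, adjusted p = 0.225).

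**Figure D4:**
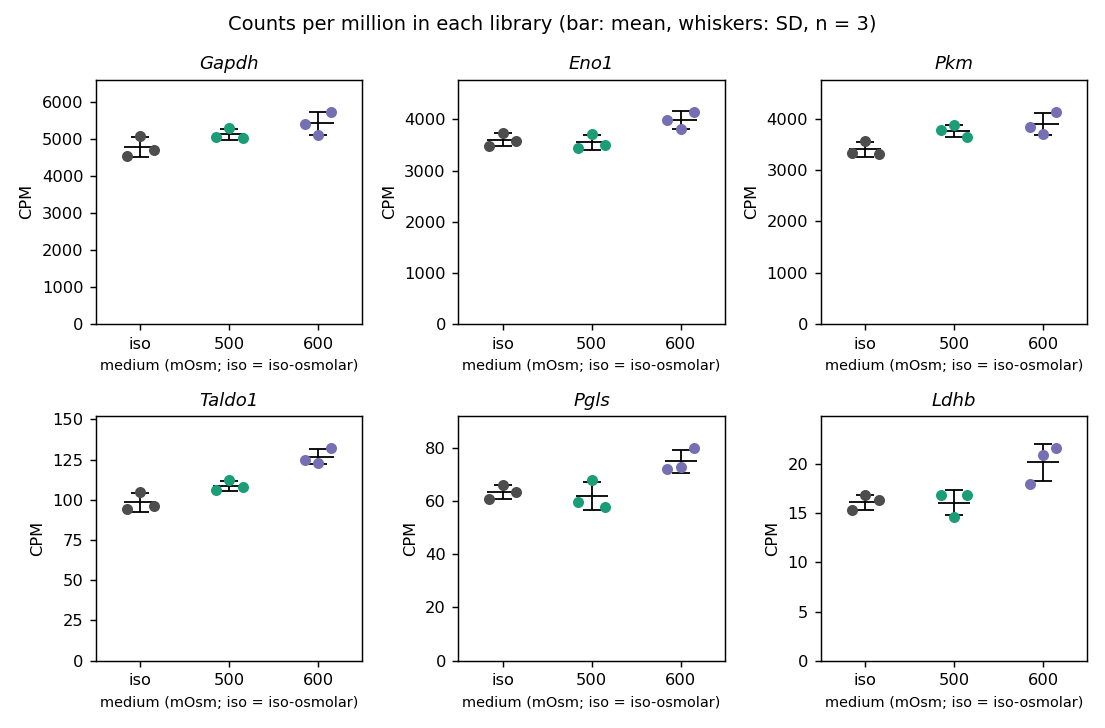
CPM in each of the 9 libraries (points), with group means and SD (n = 3), for 6 of the genes higher at 600 mOsm than in the iso-osmolar libraries, with axes from 0. The shifts are small against the level itself, at 1.11 to 1.29 times the iso-osmolar level, and the 600 mOsm libraries of each gene lie above its iso-osmolar ones. With the GC content and length correction Taldo1 kept its call against iso-osmolar medium, and Gapdh, Eno1, Pkm, Pgls and Ldhb lost theirs.

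In the oxidative arm of the pentose phosphate pathway, which makes NADPH, 0 of 3 genes were called at 500 mOsm in edgeR, DESeq2 or limma, and 1 (Pgd) was lower at an unadjusted p under 0.05 in edgeR. The first enzyme, G6pdx, had means of 226, 214 and 238 CPM and the third, Pgd, 504, 471 and 501 CPM, and neither was called in any comparison. Pgls, the lactonase between them, read 60.9, 66.1 and 63.5 CPM, then 59.8, 67.8 and 57.7 CPM, then 72.1, 72.8 and 79.8 CPM. Pgls was higher at 600 mOsm than in the iso-osmolar libraries (0.24 ± 0.069 SE, adjusted p = 0.0178) and than at 500 mOsm (0.28 ± 0.0689 SE, adjusted p = 0.00895), the groups not overlapping, and with the correction the second of these calls was kept and the first was not (adjusted p = 0.0585).

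The non-oxidative arm trades sugars with glycolysis, and its genes went different ways. Rpia, which makes ribose 5-phosphate, read 44.2, 46.7 and 41.8 CPM, then 36, 35.6 and 33.5 CPM, then 40.1, 36.2 and 31.3 CPM. Rpia fell at both intensities (-0.34 ± 0.0857 SE, adjusted p = 0.0102, and -0.3 ± 0.0858 SE, adjusted p = 0.016), and the 600 mOsm call was lost without 600 mOsm replicate 3 or iso-osmolar replicate 2. Taldo1, the transaldolase, read 94, 105 and 96.3 CPM, then 106, 112 and 108 CPM, then 125, 123 and 132 CPM. Its 3 groups did not overlap and lay in the order of the osmolality. Taldo1 was called at 600 mOsm (0.37 ± 0.054 SE, adjusted p = 0.000218), the largest gain among the 12, and in 600 against 500 mOsm (0.23 ± 0.0537 SE, adjusted p = 0.00678), while 500 mOsm against iso-osmolar was not called (0.14, adjusted p = 0.0708). With the GC content and length correction the 600 mOsm value was 0.21, still called, and that against 500 mOsm was 0.1, no longer called. Tkt, the transketolase, had means of 367 ± 4.04, 341 ± 8.47 and 381 ± 6.46 CPM (SD, n = 3) and was called in the main fit in 600 against 500 mOsm alone (0.16, adjusted p = 0.0103). With the correction Tkt was also called lower at 500 mOsm than in the iso-osmolar libraries (-0.12, adjusted p = 0.0136). Rpe, the epimerase, was not called, with 17.8 to 23.4 CPM.

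The subunits of the PDH complex did not move as a unit. At 500 mOsm 0 of 3 were called in edgeR, DESeq2 or limma, and 0 had an unadjusted p under 0.05 in edgeR. At 600 mOsm Dlat, the acetyltransferase core, was lower, Pdha1, the catalytic alpha subunit, was lower, and Pdhb, the beta subunit that pairs with it, was higher. Dlat read 87.1, 82.9 and 78.4 CPM in the iso-osmolar libraries, 77.3, 76.8 and 78.9 CPM at 500 mOsm, and 67.2, 70.1 and 66.8 CPM at 600 mOsm. The 600 mOsm libraries lay below all others (-0.28 ± 0.0525 SE against iso-osmolar, adjusted p = 0.00123, and -0.19 ± 0.0524 SE against 500 mOsm, adjusted p = 0.0157, the second lost with the correction). Pdha1 had means of 108 ± 6.82 and 95.8 ± 6.07 CPM in the iso-osmolar and 600 mOsm groups (SD, n = 3), overlapping ranges, and -0.18 (adjusted p = 0.0386). It kept that call in 5 of 9 fits that left out 1 library. Pdhb had means of 79.1 ± 2.26 and 89.2 ± 1.16 CPM (SD, n = 3) in the same groups (0.17, adjusted p = 0.0145), which did not overlap.

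Of 49 other genes of the pathway, 33 passed the filter. At 500 mOsm 6 were higher and 4 lower than in the iso-osmolar libraries, at 600 mOsm 8 were higher and 5 lower, and in 600 against 500 mOsm 4 were higher and 3 lower. Among all genes tested the shares were 13.2% and 14.8%, 15.1% and 20.0%, and 11.9% and 17.2%. Pdp2, the second PDH phosphatase, had means of 26.1 ± 1.19, 11.5 ± 1.1 and 16.4 ± 0.683 CPM (SD, n = 3). It was lower at 500 mOsm (-1.18 ± 0.0869 SE, adjusted p = 5.34e-07) and higher at 600 than at 500 mOsm (0.51, adjusted p = 0.000834), the pattern seen for Hk2, Pfkfb4 and Pdk4. Slc2a1, the main glucose transporter of fibroblasts, went from 141 ± 6.18 to 95.3 ± 0.95 and 104 ± 5.47 CPM (-0.57, adjusted p = 4.29e-06, and -0.43, adjusted p = 4.77e-05). Bpgm, which makes 2,3-bisphosphoglycerate, was highest at 500 mOsm, with 20.9 ± 0.616, 40 ± 3.38 and 22.1 ± 1.13 CPM, and was lower at 600 than at 500 mOsm (-0.85 ± 0.0768 SE, adjusted p = 4.26e-06). Unlike Hk2, Bpgm was not called at 600 mOsm against iso-osmolar medium (0.08, adjusted p = 0.454). Slc16a3, a lactate exporter, was higher at 600 than at 500 mOsm (0.37, adjusted p = 0.00222). Pck1, the gluconeogenic carboxykinase, had no read in the iso-osmolar libraries, 27 to 40 reads in each at 500 mOsm and 0 to 4 at 600 mOsm. Its mean level at 500 mOsm, 1.29 CPM, was 10.1 times a floor of 3 counts per library.

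Gapdh and Pgk1 are widely used as RT-qPCR standards, and were set beside other genes used in that way, 17 in all. At 500 mOsm 3 of the 17 were lower (Actb, Tbp and Ywhaz), and Gapdh and Pgk1 were not called. At 600 mOsm 9 were higher, Gapdh and Pgk1 among them, with log2 fold changes of 0.16 to 0.25, and 1 was lower (Ywhaz, -0.31). Among all genes tested 13.2% were higher and 14.8% lower at 500 mOsm, and 15.1% higher and 20.0% lower at 600 mOsm. The median of the 17 was 0.16 at 600 mOsm, against 0.01 over all genes tested. Gapdh in 600 against 500 mOsm was 0.08 ± 0.0541 SE (adjusted p = 0.286), and -0.02 with the GC content and length correction.

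**Figure D5:**
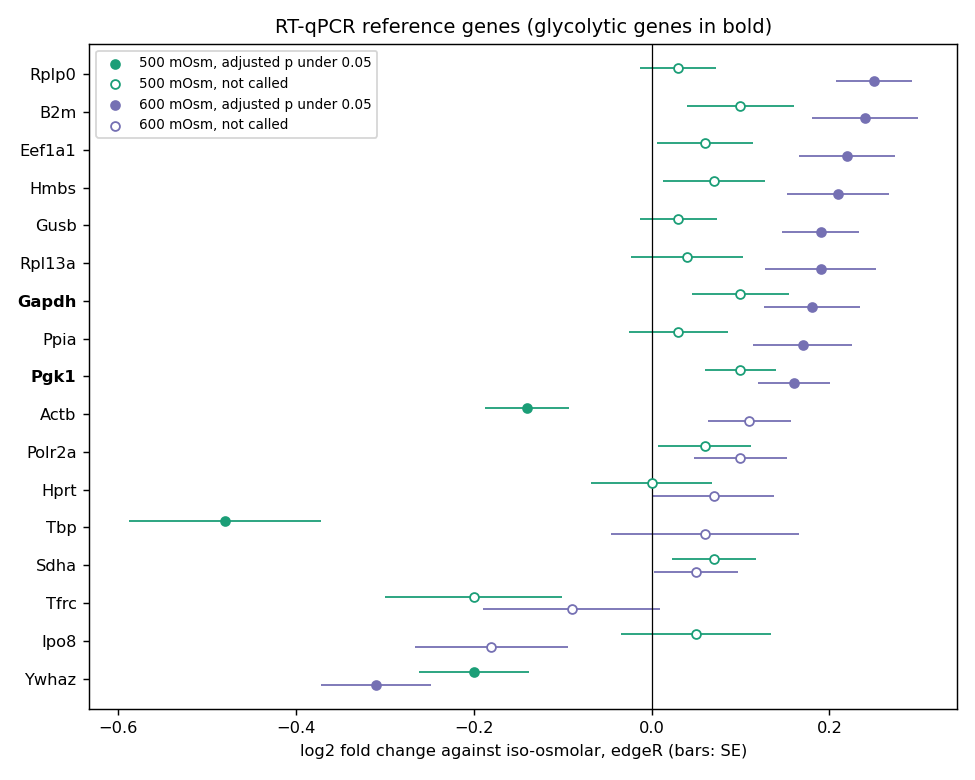
Log2 fold change of 17 RT-qPCR reference genes at 500 mOsm (green) and 600 mOsm (purple) against iso-osmolar medium, ordered by the 600 mOsm value, with bars of 1 SE and filled points for an adjusted p under 0.05 in edgeR. Gapdh and Pgk1, in bold, lie at 0.18 and 0.16 at 600 mOsm, within the band of 0.16 to 0.25 that the 9 higher genes span, and Tbp stands at -0.48 at 500 mOsm.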

How the data were processed

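Poly-A RNA of MEFs in 9 libraries (3 iso-osmolar, 3 at 500 mOsm, 3 at 600 mOsm) was sequenced as paired 150-base reads. Per the labels, the authors used CASAVA 1.8, STAR and the mm10 build. The counting tool, its strand setting and the annotation are not given in the sources used here. The deposited table holds a read count and an FPKM value for each gene and library, and the deposited FPKM equals the count divided by gene length and library total. The authors' group means, fold changes and p-values in the same table were not used.

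Counts were tested with edgeR 4.0.16 (R 4.3.3, TMM, filterByExpr, quasi-likelihood F test, all 9 libraries, no covariate), adjusted by Benjamini-Hochberg over 13082 genes, and a gene was called at an adjusted p under 0.05. SE values are the log2 fold change divided by the root of F. Isozyme shares of FPKM were compared by exact permutation tests. The fits were tested on simulated data. Alternatives were RLE factors, no factors, other filters, DESeq2 1.42.0, limma 3.58.1 on log2(FPKM + 1) and log2(FPKM + 0.1), only the 6 libraries compared, the replicate number as a block, stricter thresholds, a GC content and length correction, pseudogene reads added (a wider version was chosen after seeing the data), and leaving out each library. The main fit had no block because the study named no covariate. Deviations of libraries with the same replicate number had a mean r of -0.154 over 9 pairs, against 0.0776 over 18 pairs with different numbers. The deviations were centred within each group, which ties the second mean to the first, so these means do not settle whether the numbers pair the libraries.

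The 36 genes and all lists were chosen with earlier results of these data known. Every library's value is printed for up to 6 called genes per comparison and direction with the largest change, and for Gapdh. Of the other lists at most 3 called genes per comparison and direction are named, and 1 gene of the RT-qPCR reference list is not reported here. Totals of 21716042 to 26740832 counts put the floor of 3 counts at 0.112 to 0.138 CPM. The gene positions are those of the table, and promoter sequences came from RefSeq.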

Additional observations from a re-analysis of the deposited data

How the results depend on the processing

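The losses of Hk2, Pfkfb3, Pfkfb4, Rpia and Pdk4 at 500 mOsm kept direction in every alternative, and those of Hk2, Pfkfb4 and Pdk4 kept their call in all. Counts of genes called in 500 mOsm against iso-osmolar, 600 mOsm against iso-osmolar and 600 against 500 mOsm were 9, 20 and 12. They were 5, 6 and 5 at an adjusted p under 0.01, and 5, 3 and 1 with a log2 change of 0.5 or more in size, by the construction of these thresholds. With the GC content and length correction they were 12, 14 and 8. With the replicate number as a block they were 7, 16 and 8, and with both 9, 13 and 8. Deviations of same-numbered libraries correlated at -0.42 to 0.321, which does not settle whether the numbers pair the libraries. Leaving out 1 library gave 6 to 11, 8 to 20 and 6 to 12. The correction, alone or with the block, reversed Aldoa at 600 mOsm against iso-osmolar (-0.03) and Gapdh in 600 against 500 mOsm (-0.02). The cause was not tested. The isozyme shares that changed sign when 1 library was left out were small, and their differences, in percentage points, ran as follows. Eno2 ranged from -0.00135 to 0.00385 (500 mOsm against iso-osmolar), from -0.00141 to 0.00356 (600 mOsm against iso-osmolar) and from -0.0022 to 0.00159 (600 against 500 mOsm). Pdk1 ranged from -0.314 to 0.0239 and from -0.112 to 0.227 in the first and second of these comparisons, Ldhb from -0.0207 to 0.127 in the first, and Aldoc from -0.000522 to 0.0119 in the third. The 11 genes called in no comparison cannot be said to be unchanged, and Aldoc, Eno2, Pfkfb2, Pdk1 and Pdk2 rest on few reads.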

Other observations

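Hk2, Pfkfb3, Pfkfb4, Slc2a1 and Pdk1 are also known as genes induced in hypoxia, so 21 hypoxia-responsive genes outside glucose breakdown were read beside them, of which 20 passed the filter. At 500 mOsm 3 were higher and 2 lower than in iso-osmolar medium, at 600 mOsm 2 were higher and 5 lower, and in 600 against 500 mOsm 0 were higher and 6 were lower by the edgeR test, as in DESeq2 and limma (at an unadjusted p under 0.05 in edgeR, 0 and 7). Among all genes tested in edgeR the shares higher and lower were 13.2% and 14.8%, 15.1% and 20.0%, and 11.9% and 17.2%. Vegfa, the vascular growth factor, had means of 138 ± 8.3, 79.8 ± 1.85 and 31.5 ± 1.63 CPM (SD, n = 3), a log2 fold change of -0.79 at 500 mOsm (adjusted p = 4.91e-07) and -2.13 at 600 mOsm (adjusted p = 2.74e-10). Ndrg1, a stress-responsive growth suppressor, had means of 55.1 ± 2.63, 26 ± 0.585 and 23.3 ± 1.53 CPM. Ddit4, an inhibitor of mTORC1, went the other way, from 13.7 ± 2.3 to 133 ± 8.88 CPM at 500 mOsm and 29.6 ± 2.37 CPM at 600 mOsm.

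Among low-count genes of the pathway, Ldhd, the D-lactate dehydrogenase of mitochondria, went from 0.146 ± 0.11 CPM in iso-osmolar medium to 1.17 ± 0.0349 at 500 mOsm and 0.274 ± 0.0653 at 600 mOsm (SD, n = 3, log2 fold change 3 at 500 mOsm, adjusted p = 7.06e-05). Galm, the galactose mutarotase, was higher in both stressed groups, with 0.0986 ± 0.0214, 0.384 ± 0.271 and 0.686 ± 0.157 CPM (adjusted p = 0.0395 and 0.00232). Ldhd had 2 to 6 reads in each iso-osmolar library, 28 to 32 at 500 mOsm and 5 to 9 at 600 mOsm. Galm had 2 to 3, 6 to 17 and 12 to 22, its iso-osmolar mean lying under the floor of 3 counts. Both met the filter on low counts only through stressed libraries, so their calls of higher are not independent of it. Pcx, pyruvate carboxylase, was higher at both intensities as well, with 107 ± 7.63, 125 ± 6.34 and 140.4 ± 9.1 CPM (adjusted p = 0.0239 and 0.000582), while Gpd2, the mitochondrial glycerol 3-phosphate dehydrogenase, was lower at both, with 61.2 ± 3.8, 51.5 ± 1.97 and 44.4 ± 4.59 CPM (adjusted p = 0.0282 and 0.000565).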
